A study of Mus musculus with 18 samples.

Results

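Chd4, Hdac1, Hdac2, Kdm1a, Mbd3 and Mta1 encode corepressor proteins, and Atrx and Daxx encode a histone chaperone pair. These 8 genes were chosen by name from 17761 gene symbols found in both of the study's RNA tables, and each of them has a value in every library used here. The study removed Trim28, also called KAP1, a corepressor recruited by KRAB zinc finger proteins, which in turn brings in writers of H3K9me3, a histone mark of silent chromatin. The groups used here were Trim28-knockout ES3 cells, taken 4 days after a Cre recombinase was induced with 4-hydroxytamoxifen (4-OHT), wild-type ES3 cells cultured for 4 days, knockout mouse embryonic fibroblasts (MEFs) taken 5 days after the same induction, and wild-type MEFs cultured for 5 days. ES3 is an embryonic stem (ES) cell line kept on gelatin in serum with leukaemia inhibitory factor, and both cell types are of the C57BL/6 strain. The labels do not say whether wild-type cells received 4-OHT. Duplicate cultures were pooled before RNA extraction, so each group is 1 library: differences have no replicate check, none was tested, and a gene counts as called higher or lower where its log2 ratio was at least 2-fold in size. Levels are RPKM, read numbers scaled to transcript length and library depth, and ratios are log2((knockout + 1)/(wild type + 1)) of RPKM, a scale that understates the change of genes with low RPKM. In addition, 6 lists of H3K9me3 regions and KAP1 peaks from ES3 chromatin were searched around the 8 genes.

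The nucleosome remodelling and deacetylase (NuRD) complex joins a chromatin remodelling ATPase, Chd4 or its relatives Chd3 and Chd5, with the histone deacetylases Hdac1 and Hdac2. Mta proteins form its scaffold, and either Mbd2 or Mbd3 is built in. Kdm1a (LSD1) removes methyl groups from lysine 4 of histone H3, chiefly in the CoREST complex, and can also be found with NuRD. Atrx, an ATPase, works with Daxx, which carries the histone variant H3.3 and deposits it at telomeres, pericentromeric repeats and retroviral elements. Both corepressor systems have been linked to TRIM28: its C-terminal part binds NuRD, and Atrx and Daxx act with it at silenced repeats in ES cells.

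Trim28 stood at 37.2 RPKM in knockout ES3 cells against 1051 RPKM in wild-type ES3 cells, and at 5.84 RPKM in knockout MEFs against 62.8 RPKM in wild-type MEFs. All 8 ES cell markers examined had 1 RPKM or more in both ES3 libraries, and all 8 fibroblast markers in both MEF libraries. The ES cell markers summed to 1060.4 RPKM in knockout ES3 cells and 2081 RPKM in wild-type ES3 cells. There, 8 primitive endoderm markers summed to 1116 RPKM in the knockout and 45.5 RPKM in wild type, and 8 and 3 of them reached 1 RPKM. In the same pair 8 fibroblast markers summed to 19.9 RPKM in the knockout and 3.38 RPKM in wild type, 5 endothelial markers to 18.8 RPKM in the knockout and 17.0 RPKM in wild type, and 4 macrophage and leukocyte markers to 90.6 RPKM in the knockout and 172.7 RPKM in wild type. Of the fibroblast markers, 5 reached 1 RPKM in the knockout and 2 in wild type, and of the endothelial markers also 5 and 2. Of the macrophage and leukocyte markers, 2 reached 1 RPKM in each ES3 library. Ptprc and Csf1r were under 1 RPKM in wild type, where 2 of the 4 stood at 0. In bulk RNA of this kind, fewer cells of a type and less RNA per cell cannot be told apart. In MEFs the fibroblast markers summed to 3347 RPKM in the knockout and 4053 RPKM in wild type. The primitive endoderm markers summed to 583.1 RPKM in knockout and 774.7 RPKM in wild-type MEFs, and 5 of 8 reached 1 RPKM in each. Not all of these markers are thus particular to endoderm. Of 5 endothelial markers, 1 had 1 RPKM or more in each MEF library, and of 4 macrophage and leukocyte markers with a value, 3 did. RPKM summed over symbols to 306318 and 318250 in knockout and wild-type ES3 cells, and to 369572 and 308887 in knockout and wild-type MEFs; the reads per library are unknown.

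Promoters of 3 genes are shown because they belong to the genes on which the results turn: Atrx, the gene of the 8 past 2-fold in MEFs, Mbd3, the gene with the highest MEF ratio, and Hdac2, the gene with an H3K9me3 region in the wild-type list near its start. They are RefSeq windows of GRCm38.p6 that run from 250 bases before to 50 bases after the annotated start, 5′ to 3′ on the gene's strand: chrX:105929323-105929622 (minus strand) for Atrx, chr10:80399482-80399781 (minus strand) for Mbd3 and chr10:36974294-36974593 (plus strand) for Hdac2. Capitals mark CCAAT, or its reverse complement ATTGG, a common promoter element, and were added after the sequences had been seen.
Atrx: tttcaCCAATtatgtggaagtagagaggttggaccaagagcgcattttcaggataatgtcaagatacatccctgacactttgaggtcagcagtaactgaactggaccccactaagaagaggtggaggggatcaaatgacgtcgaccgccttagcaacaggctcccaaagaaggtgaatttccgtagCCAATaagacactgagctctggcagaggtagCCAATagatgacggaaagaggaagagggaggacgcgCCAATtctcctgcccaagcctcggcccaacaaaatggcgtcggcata
Mbd3: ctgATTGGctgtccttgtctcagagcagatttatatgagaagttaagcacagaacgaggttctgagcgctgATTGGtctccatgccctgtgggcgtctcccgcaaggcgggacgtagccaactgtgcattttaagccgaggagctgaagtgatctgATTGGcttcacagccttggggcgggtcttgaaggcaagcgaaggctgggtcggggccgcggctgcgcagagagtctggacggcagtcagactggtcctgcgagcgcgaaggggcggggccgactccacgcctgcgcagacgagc
Hdac2: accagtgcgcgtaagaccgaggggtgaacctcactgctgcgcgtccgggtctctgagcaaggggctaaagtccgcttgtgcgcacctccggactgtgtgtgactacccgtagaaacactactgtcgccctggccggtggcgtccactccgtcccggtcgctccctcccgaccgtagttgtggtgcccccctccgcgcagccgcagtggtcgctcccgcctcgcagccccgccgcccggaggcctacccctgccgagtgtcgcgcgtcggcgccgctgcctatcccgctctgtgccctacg
The Atrx window held 4 matches, all as CCAAT, the Mbd3 window held 3, all as ATTGG, and the Hdac2 window held none. Of 32851 RefSeq windows of 300 bases, 37.4% held at least 1 match on either strand and 3.37% held 3 or more. A RefSeq window was found for 7 of the 8 genes. Of these, 5 (Atrx, Mbd3, Kdm1a, Chd4 and Daxx) had a match in at least 1 of their windows. That is a count of genes, unlike the share of single windows above: Chd4 has 2 windows and Daxx 3, of which 1 held a match. Dinucleotides CG numbered 11 in the Atrx window, 22 in the Mbd3 window and 36 in the Hdac2 window, beside a median of 7 over all windows. Matches are a description of these letters, and no binding was measured at them.

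In ES3 cells, 7 of the 8 genes had lower RPKM in the knockout than in wild type, and Mta1 alone had a higher one. Of 12024 measured genes (those reaching 1 RPKM in either library), 5359 had log2 ratios below 0 and 6665 above. None of the 8 passed 2-fold in either direction, where 3.18% of measured genes were called lower, 12.5% higher and 15.7% either way. The median log2 ratio of the 8 was −0.39, beside 0.08 over all measured genes and −0.00 over the 8250 genes at 5 RPKM or more. Ratios ran between −0.78 for Atrx and 0.10 for Mta1. The sign of each of the 8 stayed as it was when ratios were centred on the median of all genes or within bins of gene span. The differences in ES cell, primitive endoderm, fibroblast, endothelial and leukocyte markers given above came in the same pair of libraries. Their part in these ratios was not tested.

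In MEFs the 8 genes went both ways, with 5 above 0 and 3 below, and Atrx was the called gene, lower in the knockout. Of 10805 measured MEF genes, 5431 were above 0 and 5374 below. Called lower were 4.84%, higher 0.981% and either way 5.82%. The median of the 8 was 0.11, beside 0.00 over all measured genes and 0.11 over the 7355 genes at 5 RPKM or more. Centred within bins of span, Daxx moved to −0.12, so 4 of the 8 were then above 0.

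**Figure D1:**
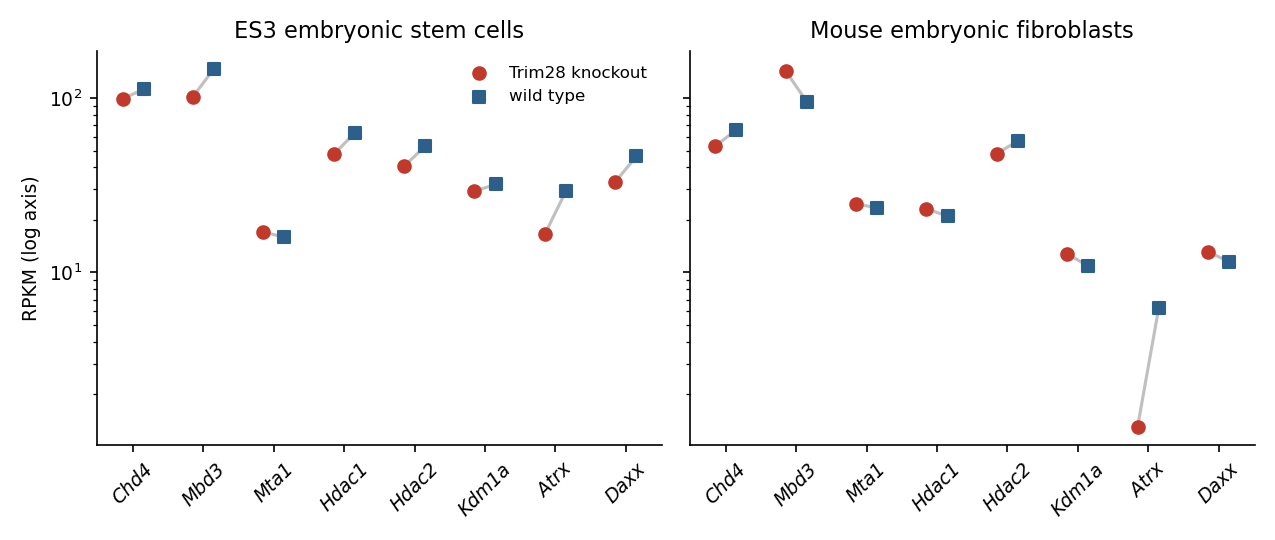
RPKM on a log axis of the 8 genes in knockout (red circles) and wild-type (blue squares) libraries of ES3 cells and MEFs, 1 library each, with a line joining the 2 libraries of a cell type. In MEFs Atrx stands apart at 1.30 RPKM in the knockout and 6.22 RPKM in wild type, while the other lines are short.

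Chd4 (NM_145979; mm9 chromosome 6, 125045999 to 125080609, 34.6 kb) encodes the main remodelling ATPase of NuRD. It had 98.9 RPKM in knockout and 112.2 RPKM in wild-type ES3 cells, and 53.0 RPKM in knockout and 65.6 RPKM in wild-type MEFs. Its log2 ratios of −0.18 in ES3 cells and −0.30 in MEFs were both below 0 and both within 2-fold. By RPKM, Mbd3 was the highest and Chd4 the second of the 8 in all 4 libraries.

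Mbd3 (NM_013595; chromosome 10, 79855284 to 79862295, 7.01 kb) encodes a methyl-CpG-binding domain protein of NuRD that itself binds methylated DNA poorly. It had 101.7 RPKM in knockout and 147.3 RPKM in wild-type ES3 cells, a log2 ratio of −0.53. In MEFs it had 143.1 RPKM in the knockout and 95.1 RPKM in wild type, a log2 ratio of 0.58. It thus had the lowest ES3 ratio of the 6 corepressor genes and the highest MEF ratio of all 8. Only Daxx has a shorter span among the 8. The bin of MEF genes with spans like that of Mbd3 had a median log2 ratio of 0.29, and the ratio of Mbd3 centred on that bin was 0.29.

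Mta1 (NM_054081; chromosome 12, 114336489 to 114375417, 38.9 kb) encodes a scaffold subunit. It had 17.1 RPKM in knockout and 15.9 RPKM in wild-type ES3 cells, and 24.8 RPKM in knockout and 23.4 RPKM in wild-type MEFs. The knockout value was 107.6% of wild type in ES3 cells and 106.1% in MEFs. Mta1 was the gene of the 8 whose ES3 and MEF ratios, 0.10 and 0.08, lay closest together.

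Hdac1 (NM_008228; chromosome 4, 129193348 to 129219957, 26.6 kb) and Hdac2 (NM_008229; chromosome 10, 36694350 to 36721695, 27.3 kb) encode closely related deacetylases that serve NuRD, CoREST and Sin3 complexes. Hdac1 had 47.5 RPKM in knockout and 63.1 RPKM in wild-type ES3 cells (log2 ratio −0.40), and 23.2 RPKM in knockout and 21.0 RPKM in wild-type MEFs (0.14). Hdac2 had 40.7 RPKM in knockout and 52.8 RPKM in wild-type ES3 cells (−0.37), and 47.9 RPKM in knockout and 56.8 RPKM in wild-type MEFs (−0.24). In ES3 cells the pair had similar ratios below 0, and in MEFs they lay on opposite sides of 0, all within 2-fold. Their spans fall in the same bin in both cell types, and their signs were the same after centring.

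Kdm1a (NM_133872; chromosome 4, 136106456 to 136158625, 52.2 kb) encodes the histone H3 lysine 4 demethylase LSD1. It had 29.2 RPKM in knockout and 32.0 RPKM in wild-type ES3 cells (log2 ratio −0.13), and 12.8 RPKM in knockout and 10.9 RPKM in wild-type MEFs (0.22). Among the 8 genes it has the second longest span, and the MEF bin of that span had a median of −0.32. Centred on that bin, Kdm1a stood at 0.54, the highest centred MEF ratio of the 8, and it ranked 479th from the lowest of 540 genes there.

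Atrx (NM_009530; chromosome X, 102992954 to 103124736, 131.8 kb) encodes the ATPase of the H3.3 chaperone pair and had the lowest ratio of the 8 in both cell types. It had 16.6 RPKM in knockout and 29.2 RPKM in wild-type ES3 cells, which is 56.7% of wild type and a log2 ratio of −0.78. In MEFs it had 1.30 RPKM in the knockout and 6.22 RPKM in wild type, which is 20.9% and a log2 ratio of −1.65. The MEF ratio was the 30th lowest of 10805 measured genes, and the ES3 ratio the 685th lowest of 12024. With a pseudocount of 5 RPKM in place of 1 the MEF ratio was −0.83, under 2-fold. With 0.1 RPKM it lay 0.52 lower than with 1, still past 2-fold.

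Daxx (NM_007829; chromosome 17, 34046463 to 34052461, 6.00 kb) encodes the partner that binds H3.3 itself. It had 33.01 RPKM in knockout and 46.3 RPKM in wild-type ES3 cells (log2 ratio −0.48), and 13.1 RPKM in knockout and 11.5 RPKM in wild-type MEFs (0.18). In MEFs the pair thus lay on opposite sides of 0, although Daxx stood at −0.12 once centred within span bins. Within a library, RPKM of Atrx was 0.0991 times that of Daxx in knockout MEFs and 0.540 times in wild-type MEFs, against 0.502 and 0.632 times in knockout and wild-type ES3 cells. These quotients are unaffected by any scaling of a whole library, but they are not corrected for gene span. The MEF span bins that hold Atrx and Daxx had median log2 ratios of −0.45 and 0.29.

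**Figure D2:**
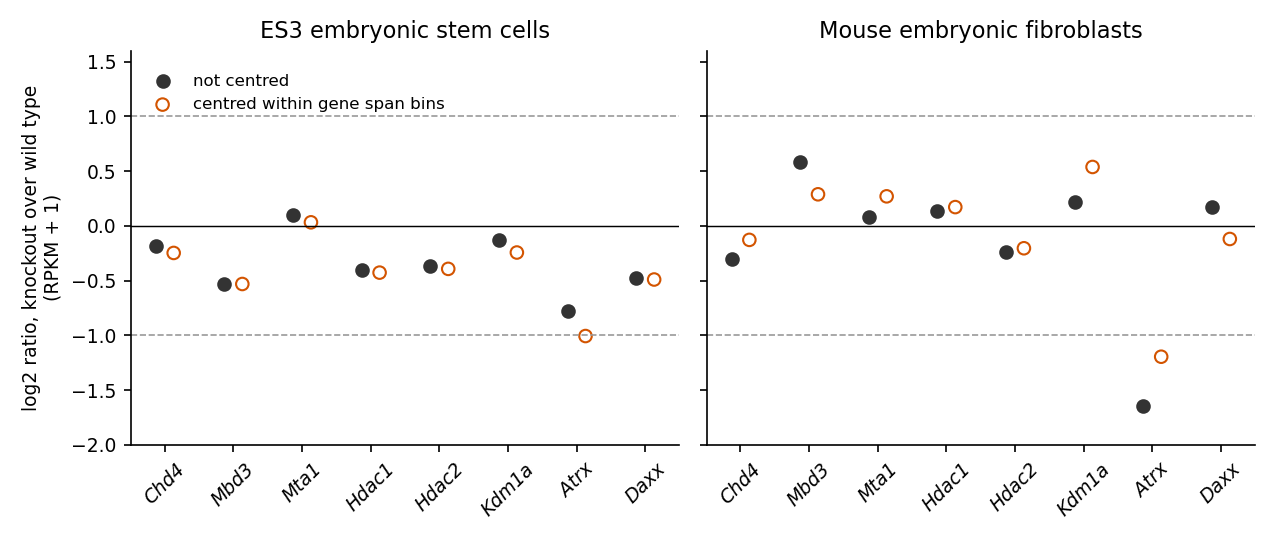
Log2 ratios of knockout over wild type (RPKM + 1) of the 8 genes in ES3 cells and MEFs, without centring (filled) and after centring within 20 bins of gene span (open); dashed lines mark 2-fold. Atrx lies past 2-fold in MEFs under both, at −1.65 and −1.20, and in ES3 cells at −0.78 without centring and −1.01 with it.

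Gene span, the distance between a gene's deposited start and end, matters here because MEF ratios fell with it across the genome. Among measured MEF genes the median log2 ratio was 0.53 in the bin of shortest spans (up to 2.29 kb) and −0.47 in the bin of longest spans (170.8 kb and more). In ES3 cells the shortest and longest bins had medians of 0.02 and 0.23. Spearman's rho of span and ratio was −0.54 over 10805 MEF genes and 0.07 over 12024 ES3 genes, a description across genes that are no replicates of each other. The 8 genes cover a wide part of this scale, with Daxx and Mbd3 in the fourth MEF bin, Hdac1 and Hdac2 in the twelfth, Chd4 in the thirteenth, Mta1 in the fourteenth, Kdm1a in the sixteenth and Atrx in the nineteenth. The median of the bin that holds Atrx was −0.45, and 82 of its 540 genes (15.2%) were called lower. Atrx ranked 6th from the lowest of those 540 genes and stood at −1.20 after centring. In ES3 cells, where long genes tended to higher ratios, the bin that holds Atrx had a median of 0.22, Atrx ranked 32nd from the lowest of 601, and centring took it to −1.01, past 2-fold. Why MEF ratios follow span was not tested.

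**Figure D3:**
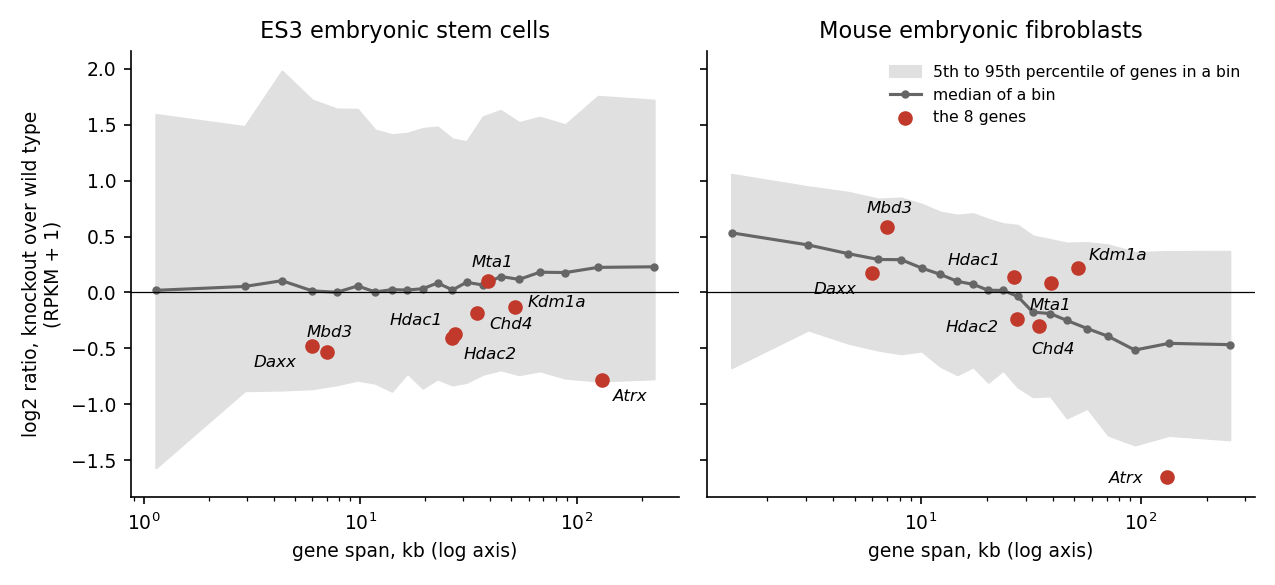
Log2 ratio of knockout over wild type (RPKM + 1) against gene span in kb on a log axis, for ES3 cells and MEFs. The grey line joins the medians of 20 bins of measured genes, the band runs from the 5th to the 95th percentile of a bin, and the red points are the 8 genes. Atrx lies below the band in MEFs, at the edge of it in ES3 cells, and the other 7 genes lie inside it in both.

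Atrx is the gene of the 8 on the X chromosome. The 334 measured MEF genes of that chromosome had a median log2 ratio of −0.18, which stayed −0.18 after span centring, with 33 called lower and 3 higher. The 55 X-linked MEF genes over 100 kb other than Atrx had a median of −0.56, with 17 called lower. In the span bin that holds Atrx, 15.2% of all genes were called lower. Centred within span bins, the median of the 55 was −0.06, with 4 called lower and 1 higher. In ES3 cells, 390 X-linked genes had a median of 0.27 (0.16 after span centring), with 12 called lower and 61 higher without centring. The X-linked median lay below 0 in MEFs and above 0 in ES3 cells, and Atrx lay below 0 in both. Whether X linkage has a part in the Atrx ratios was not tested.

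The members of each NuRD subunit family were then compared by their share of the family's summed RPKM in each library. Chd4 made up 94.9% of Chd3, Chd4 and Chd5 in knockout and 96.8% in wild-type ES3 cells, against 63.3% in knockout and 58.5% in wild-type MEFs. The rest in MEFs was nearly all Chd3, with 30.5 RPKM in the knockout and 46.3 RPKM in wild type. Chd3 is the relative of Chd4 that was first described as a partner of the C-terminal part of TRIM28. In ES3 cells Chd3 had 4.81 RPKM in the knockout and 2.67 RPKM in wild type. Chd5, known mainly from neurons and testis, stayed at or below 1.08 RPKM in all 4 libraries.

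Of Mbd2 and Mbd3, which form separate NuRD complexes, Mbd3 made up 88.2% in knockout and 96.9% in wild-type ES3 cells. Mbd2, which binds methylated DNA, had 13.6 RPKM in the knockout and 4.66 RPKM in wild type there, a log2 ratio of 1.36, so the Mbd3 to Mbd2 quotient was 7.49 in knockout and 31.6 in wild-type ES3 cells. In MEFs Mbd3 made up 81.4% in the knockout and 74.3% in wild type, with Mbd2 at 32.7 RPKM in the knockout and 32.9 RPKM in wild type. The share of Mbd3 was thus lower in the ES3 knockout and higher in the MEF knockout than in wild type. These shares are not corrected for gene span, which is 7.01 kb for Mbd3 and 57.9 kb for Mbd2. Centred within span bins, the MEF log2 ratios were 0.29 for Mbd3 and 0.31 for Mbd2, so the MEF difference in share was not seen after centring.

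Mta2 was the most abundant of the Mta genes in all 4 libraries. Mta1 made up 19.4% of the family in knockout and 17.1% in wild-type ES3 cells, and 37.6% in knockout and 36.7% in wild-type MEFs. Mta3 made up 12.2% and 15.9% in knockout and wild-type ES3 cells, and 7.62% and 6.87% in knockout and wild-type MEFs. Hdac2 made up 46.1% of the deacetylase pair in knockout and 45.6% in wild-type ES3 cells, and 67.4% in knockout and 73.0% in wild-type MEFs. Both of these families thus differed more between cell types than between knockout and wild type. Levels in ES3 cells and MEFs come from tables normalized separately, but a share within a library does not depend on that.

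**Figure D4:**
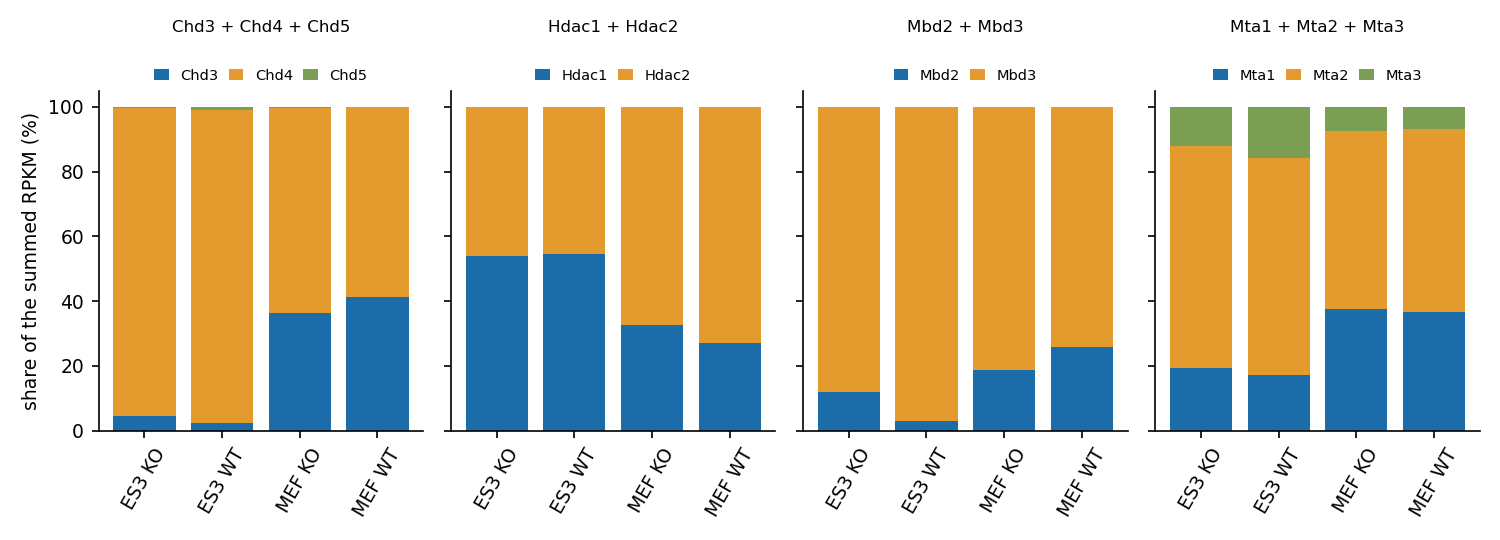
Share (%) of each gene in the summed RPKM of its NuRD subunit family, per library, with the knockout left of wild type in each cell type. Chd3 takes 36.4% and 41.3% of its family in knockout and wild-type MEFs but 4.62% and 2.30% in knockout and wild-type ES3 cells, and Mbd2 takes 11.8% and 3.07% of its pair in knockout and wild-type ES3 cells.

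Other genes of these pathways were taken from 5 lists chosen by name. Their counts depend on the pseudocount: with 5 RPKM in place of 1, none of the 5 lists had a gene past 2-fold in ES3 cells, and in MEFs 1 CoREST partner and 1 class I deacetylase corepressor were lower and no other listed gene passed. Of 10 other NuRD subunits, all measured, 1 was higher in the ES3 knockout (Mbd2) and none was lower. Their median log2 ratio was −0.06 (−0.10 after span centring). Rbbp7, a histone-binding subunit, had 147.1 RPKM in knockout and 81.5 RPKM in wild-type ES3 cells (0.84), while its near relative Rbbp4 had 83.6 RPKM in the knockout and 107.0 RPKM in wild type (−0.35). In MEFs 1 of 9 measured subunits was lower and none higher, with a median of 0.00 (0.28 after span centring). The lower one was Gatad2b, which links Mbd proteins to Chd4, with 7.07 RPKM in knockout and 16.6 RPKM in wild-type MEFs (−1.12, and −1.19 after centring). Its relative Gatad2a had 6.58 RPKM in the knockout and 6.68 RPKM in wild type (−0.02).

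Among 7 CoREST partners of Kdm1a, 1 was higher and 1 lower in the ES3 knockout, with a median of 0.13 (−0.04 after span centring). The scaffold gene Rcor2 was the lower one, with 36.7 RPKM in knockout and 76.0 RPKM in wild-type ES3 cells (−1.03). The zinc finger gene Zmym2 was the higher one, with 15.3 RPKM in the knockout and 5.59 RPKM in wild type (1.31). In MEFs 2 of the 7 were lower and none higher, with a median of −0.28 (−0.20 after centring, and −1.07 among genes reaching 5 RPKM). The scaffold gene Rcor1 was lower, with 4.58 RPKM in knockout and 14.6 RPKM in wild-type MEFs (−1.49, and −1.10 after centring). So was Zmym2, with 3.10 RPKM in the knockout and 8.23 RPKM in wild type (−1.17, and −0.78 after centring). Rcor3, a further CoREST scaffold gene, stood at −0.97, and at −1.13 with a pseudocount of 0.1 RPKM. The quotient of Kdm1a to Rcor1 was 2.79 in knockout and 0.743 in wild-type MEFs, while Kdm1a to Rcor2 was 0.797 in knockout and 0.420 in wild-type ES3 cells. In each cell type the more abundant of these CoREST scaffolds was thus low in the knockout relative to Kdm1a. Both scaffolds had been called lower there, so these quotients restate those calls. In the other pairings, Kdm1a to Rcor1 was 2.90 in knockout and 3.51 in wild-type ES3 cells. Kdm1a to Rcor2 was 7.62 in knockout and 7.16 in wild-type MEFs.

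None of 11 other corepressor genes working with class I deacetylases passed 2-fold in ES3 cells, where their median was −0.17 (−0.35 after span centring). The largest ratios there were those of the Sin3 subunits Sap18 (0.91) and Sap30 (−0.90). In MEFs 2 of 11 were lower and none higher, with a median of −0.08, which was 0.24 after centring and 0.20 among genes reaching 5 RPKM. One was Ncor1, a corepressor of nuclear receptors, with 4.04 RPKM in knockout and 12.8 RPKM in wild-type MEFs (−1.46). Centring took Ncor1 to −1.001, just past 2-fold. The other was its partner Tbl1x, with 13.8 RPKM in the knockout and 34.3 RPKM in wild type (−1.25, and −0.80 after centring). Both genes span over 100 kb.

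Of the list of histone H3.3 and its chaperones, none passed 2-fold in either cell type, among 11 measured genes in ES3 cells and 12 in MEFs. With a pseudocount of 0.1 RPKM, 1 was lower in MEFs: Ubn2, a subunit of the HIRA complex, at −1.28 in place of −0.68. The medians were −0.12 in ES3 cells (−0.29 after span centring) and −0.53 in MEFs. The MEF median was −0.19 after centring and −0.03 among genes reaching 5 RPKM. The H3.3 genes themselves parted in ES3 cells: H3f3a had 26.1 RPKM in the knockout and 42.7 RPKM in wild type (−0.69), and H3f3b had 126.7 RPKM in the knockout and 89.4 RPKM in wild type (0.50). H3.3 genes have many processed copies, so their values are uncertain. Pml, the organiser of the nuclear bodies in which Daxx resides, had 18.9 RPKM in knockout and 35.2 RPKM in wild-type ES3 cells (−0.86). Cabin1, a subunit of the other H3.3 chaperone, HIRA, had 13.3 RPKM in the knockout and 22.9 RPKM in wild type there (−0.74).

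Other chromatin remodelling ATPases, the protein class of Chd4 and Atrx, gave the lowest MEF median of the 5 lists at the filter of 1 RPKM, while at 5 RPKM their median was −0.73 and that of the CoREST partners −1.07. All 12 measured ATPase genes had ratios below 0 in MEFs, as did 5374 of all 10805 measured genes. Of the 12, 2 were past 2-fold, and the median was −0.82 (−0.53 and none past 2-fold after span centring). Smarca2 stood at 0.33 and Smarca4 at 0.30 once centred, so not all 12 then lay below 0. With a pseudocount of 0.1 RPKM 6 of the ATPase genes were past 2-fold, and with 5 RPKM none was. Chd9 had 0.70 RPKM in knockout and 3.17 RPKM in wild-type MEFs (−1.29), and Chd1 had 2.86 RPKM in the knockout and 7.47 RPKM in wild type (−1.13). Of the measured genes, 8 span over 50 kb. In ES3 cells 1 of 14 was higher, none was lower and the median was −0.27 (−0.45 after span centring, beside −0.41 for the 8 genes). The higher one was Smarca2, an ATPase of SWI/SNF complexes, with 5.06 RPKM in knockout and 0.561 RPKM in wild-type ES3 cells (1.96), while the other SWI/SNF ATPase gene, Smarca4, had 23.2 RPKM in the knockout and 28.1 RPKM in wild type (−0.27). In MEFs the ratio of Atrx, −1.65, was below those of all 12, and the ratio of Chd4, −0.30, was above those of all but Smarca2 (−0.14) and Smarca4 (−0.22).

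**Figure D5:**
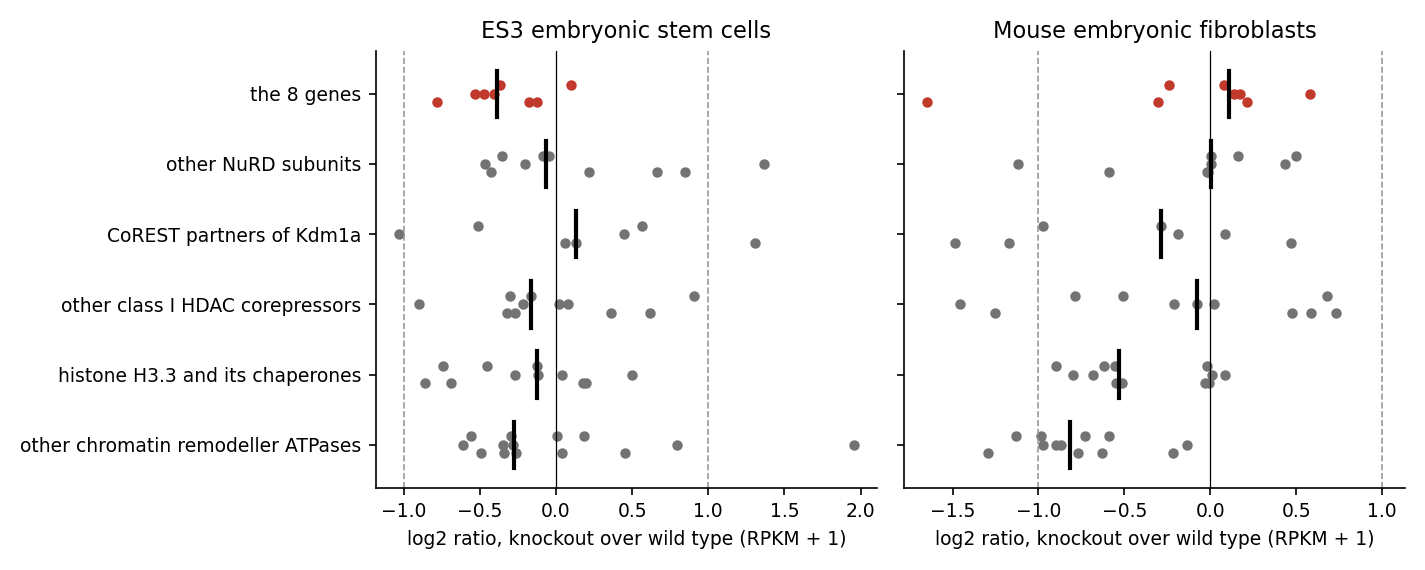
Log2 ratios of knockout over wild type (RPKM + 1) of the 8 genes (red) and of the measured genes of the 5 pathway lists (grey) in ES3 cells and MEFs; black bars are medians and dashed lines mark 2-fold. Ratios are shown without span centring. In MEFs all remodeller ATPases lie below 0, with a median of −0.82, and Atrx at −1.65 is the lowest point of the panel.

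Genes with the most similar levels were sought for each of the 8 by the distance of log2(RPKM + 1) over the 4 libraries, among 9931 other genes measured in both tables. Among the closest to Atrx were Mdm4 (distance 0.39) and Atad2 (0.60). Mdm4 had 12.9 and 26.2 RPKM in knockout and wild-type ES3 cells, and 1.13 and 6.59 RPKM in knockout and wild-type MEFs. Its log2 ratios were −0.97 in ES3 cells and −1.83 in MEFs, and its span is 35.5 kb. Likeness to Atrx in these values is what chose it. The other 7 genes had closer neighbours, at distances of 0.09 to 0.25 for the nearest of each: Btbd2 for Daxx, Abcf2 for Hdac1, Ric8 for Mta1, Eif5a for Mbd3, Kpna2 for Kdm1a, Nap1l1 for Chd4 and Srp19 for Hdac2. The 2 tables were normalized separately, so this distance describes these 4 libraries alone.

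In ES3 chromatin, 1 of the 8 genes, Hdac2, had a wild-type H3K9me3 region over it or within 20 kb of its start, where 31.7% of 17818 genes had one. In the knockout list 2 of the 8 had one, Hdac2 and Chd4, against 32% of genes. The region nearest the Hdac2 start (mm9 chromosome 10, 36692935 to 36693500) ended 850 bp upstream of it in wild type. The knockout list held a region that overlapped it (36693149 to 36693817), which ended 533 bp upstream. Inside Hdac2 lay 2 regions found in wild type only, of 657 bp starting 9537 bp after the gene's start and of 269 bp starting 25193 bp after it, and 1 region of 467 bp found in the knockout without a wild-type counterpart. Over all genes, 23.2% had a region of the wild-type-only list over them or within 20 kb of the start, and Hdac2 was the gene of the 8 that did. According to the labels, H3K9me3 was reduced but not yet gone at this time after induction.

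Over Chd4 the knockout list held 1 region of 1147 bp (chromosome 6, 125056768 to 125057914), 10769 bp downstream of the start, that overlapped none of the wild-type list. For the other 6 genes no H3K9me3 region of any list lay over the gene or within 20 kb of its start. Farther out, knockout regions lay 37.2 kb from the start of Mbd3, 54.2 kb from that of Daxx and 96.4 kb from that of Mta1, and wild-type regions 50.3 kb from the start of Daxx and 96.1 kb from that of Mta1. The nearest wild-type region to the Atrx start was 283.2 kb away.

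A KAP1 peak called in wild-type ES3 chromatin over input lay inside 1 of the 8 genes, Mta1, where 10.5% of 17818 genes had a peak over them or within 20 kb of the start. The peak (chromosome 12, 114365639 to 114366055) was 417 bp wide and began 29150 bp after the start. Its deposited score, the authors' own value per peak on an unstated scale, was 83.6, and the median of its list was 59.7. The same interval was called in wild type over knockout, with a score of 76.6, where 7.8% of genes had a peak. None of the 8 had a peak in the knockout list called over input, where 7.6% of genes did. Beyond 20 kb, Daxx had a peak 70.7 kb from its start in both wild-type lists, and Chd4 had one at 68.0 kb in the list called over knockout. The Mta1 peak overlapped no H3K9me3 region of any list. Mta1, with this peak, and Hdac2, with wild-type-only H3K9me3 inside it, had ES3 log2 ratios of 0.10 and −0.37, both within 2-fold.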

How the data were processed

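Per the labels' protocols, duplicates were combined ahead of RNA extraction, which leaves 1 library in each of the 4 RNA groups. Bowtie and genome build mm9 are named in the submitters' processing notes, with no version. How reads were counted, with which totals and on which strand, is not given in the sources used here. RPKM values were deposited by the authors, 1 row per RefSeq transcript (22631 rows for ES cells and 22630 for MEFs), and a knockout over wild-type ratio, which matches the quotient of the 2 RPKM columns within a relative 1e-04 in all 20054 and 19593 rows that have one and was not used further. Columns of the ES table carry no cell line; they were taken for ES3, since the other ES pair is labelled wild type and knockdown. H3K9me3 regions were deposited as other positional data, starts and ends with no score. KAP1 peaks carry names that MACS writes and a score deposited by the authors whose scale is not stated. Whether immunoprecipitations were pooled is not stated, and each list is 1 call per condition.

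Computed here, with Python 3.11.15, pandas 2.3.3 and numpy 2.4.6, were log2 ratios with a pseudocount of 1 RPKM. Where a symbol had several transcripts, that of highest mean RPKM stood for it (each of the 8 genes has 1 row), and a gene counted as measured if it reached 1 RPKM in either library. Rows with no symbol (780 and 778) or a calendar date in its place (40 and 39) took the reference symbol of their transcript, or its name. Span bins hold equal numbers of genes. Reads per library could not be recovered: among genes under 0.5 RPKM the commonest quotient of the libraries was shared by 1.55% in ES3 cells and 5.27% in MEFs. No other gene of the ES table overlapped any of the 8.

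The 8 genes, the pathway and marker lists, the alternatives and the span bins were chosen with earlier results of these data known. Named genes are the 8, Trim28, up to 4 genes per pathway list and cell type with the largest ratios, and, of the 3 genes nearest in level to each of the 8, the nearest or those described (1 is not reported here); Rbbp4, Gatad2a, Smarca2, Smarca4 and the members of subunit families were added for comparison after their values were seen. CCAAT was chosen after the sequences were seen. Libraries of Rex1GFP ES cells, H3K27ac and inputs were not analysed here.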

Additional observations from a re-analysis of the deposited data

Results flagged for a closer look

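For 4 of the 8 genes the knockout value lay below wild type in ES3 cells and above it in MEFs, and the difference between the cell types was not tested, since each group is 1 library. The MEF minus ES3 difference in log2 ratio was 1.11 for Mbd3, 0.65 for Daxx, 0.54 for Hdac1 and 0.34 for Kdm1a. With span centring Daxx lay below 0 in both cell types.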

How the results depend on the processing

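No paired analysis was possible because each group is 1 library and the labels give no replicate numbers. No replicate could be left out for the same reason. The ES3 median of the 8 genes, −0.39, was −0.39 with a pseudocount of 0.1 RPKM, −0.36 with 5 RPKM, −0.47 when centred on the median of all genes and −0.41 when centred within 20 bins of span. The MEF median of members of the set, 0.11, was 0.0933 with a pseudocount of 5 RPKM and 0.0261 when centred within span bins. The count of genes past 2-fold was 1 in place of 0 in ES3 cells after span centring (Atrx) and 0 in place of 1 in MEFs with a pseudocount of 5 RPKM. A 3-fold threshold changed neither count of the 8 genes. A filter at 5 RPKM, no filter and all transcript rows could not change their medians or counts. Each of the 8 has 1 row and reaches 5 RPKM in at least 1 library of each cell type. For the pathway lists, several counts and medians moved, with examples given beside them, and at 3-fold no listed MEF gene was called. Within 20 kb, H3K9me3 was near 1 gene in the wild-type list and 2 in the knockout list. A window of 100 kb gave 3 genes for the wild-type H3K9me3 list and 2 for the list of KAP1 peaks called over input. Levels near 1 RPKM, such as Atrx in knockout MEFs, rest on a number of reads that is unknown.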
